A study of Mus musculus with 5 samples.

Results

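The genes described here are the E proteins and their Id inhibitors, a regulatory circuit of lymphoid development. They were taken as every transcript row whose gene symbol was Tcf3, Tcf4, Tcf12, Id1, Id2 or Id3, which gave 11 rows of 6 genes among 26531 rows of 22098 symbols. The 11 rows all passed the filter of a mean of at least 1 RPKM (a read density, normalised for transcript length and for the size of each library) over the 5 libraries. Id1 passed only through the dF4 library, since its other values were all at or below 0.4 RPKM. RNA was measured by sequencing in cells sorted from mouse bone marrow as Hardy fraction A, where Hardy's scheme of B cell stages begins, without removing other lineages first. All mice were C57BL/6 aged 6 to 7 weeks. The groups were dF1, with 2 libraries of genotype Ikaros_ZnF1-/-, dF4, with 1 library of genotype Ikaros_ZnF4-/-, and wt, with 2 libraries. Ikaros is a zinc finger transcription factor of blood cell development, and the mutations concern its finger 1 or its finger 4. Only the dF1 pair is described as made of biological replicates, and no label names the mice behind the wt pair. The p-values thus reflect the spread between these libraries and nothing wider, and in wt that spread may be technical.

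E proteins are basic helix-loop-helix transcription factors that bind a short DNA motif, the E box, as dimers with each other or with tissue-specific partners. Tcf3 encodes E2A, which is needed for B lineage specification, Tcf12 encodes HEB, which acts with E2A in early B and T cell development, and Tcf4 encodes E2-2, which is needed for plasmacytoid dendritic cells (pDCs). Id1, Id2 and Id3 have a helix-loop-helix but no DNA-binding basic region, and they hold E proteins in dimers that cannot bind DNA. Id2 is needed for natural killer (NK) cells and some conventional dendritic cells, and Id3 is induced by antigen receptor signals in lymphocytes.

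The motif these proteins bind can be read in the promoters of the genes themselves. The letters CANNTG, which read the same on both strands, were searched in the 250 bases before the start of each gene in RefSeq (build GRCm38.p6, not the build of the deposited values). Tcf4 was not looked up, Id1 had no entry, and the other 4 genes had one. Of 32851 such windows, 66.2% held the motif at least once. The windows of 3 genes are shown because these genes differed most between libraries among the 4 found, which leave out Tcf4. Each is written 5′ to 3′ on the strand of its gene with CANNTG in capitals.
Tcf3 (chr10:80433636-80433885, minus strand): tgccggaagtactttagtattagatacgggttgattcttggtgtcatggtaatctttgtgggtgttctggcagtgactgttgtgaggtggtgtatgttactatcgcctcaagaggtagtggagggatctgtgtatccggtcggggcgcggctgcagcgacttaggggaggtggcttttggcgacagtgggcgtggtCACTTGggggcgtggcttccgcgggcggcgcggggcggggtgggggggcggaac
Id2 (chr12:25096093-25096342, minus strand): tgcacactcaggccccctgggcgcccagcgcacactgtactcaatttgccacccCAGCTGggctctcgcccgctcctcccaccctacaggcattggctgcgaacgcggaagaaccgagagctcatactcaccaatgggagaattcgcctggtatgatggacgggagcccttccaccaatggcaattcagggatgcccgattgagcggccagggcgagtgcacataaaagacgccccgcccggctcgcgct
Id3 (chr4:136143572-136143821, plus strand): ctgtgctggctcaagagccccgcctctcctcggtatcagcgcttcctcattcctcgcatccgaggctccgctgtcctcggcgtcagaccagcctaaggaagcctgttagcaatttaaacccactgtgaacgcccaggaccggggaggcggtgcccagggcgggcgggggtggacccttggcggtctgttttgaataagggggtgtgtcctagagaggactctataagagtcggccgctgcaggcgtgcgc
The Tcf3 window held 1 match (CACTTG), the Id2 window held 1 (CAGCTG) and the Id3 window held 0. A match is only these letters, and the deposited values do not say whether a protein was bound there.

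The libraries were not alike in ways that bear on these genes. The summed RPKM lay between 286080 and 345446 per library. The dF4 library is described by the design text as having low coverage, and its low values were multiples of 1 read for 82.8% of 3755 low values (within 0.1 read), which put it at about 598000 reads. The depth of the other libraries could not be read from their values and is unknown. The label calls the cells sorted proB cells, and 8 of 8 early B markers were above 0 in each library, with summed levels of 309 and 320 RPKM in dF1, 1135 in dF4 and 398 and 291 in wt. Summed pDC markers came to 4203 and 4923 RPKM in dF1, 857 in dF4 and 4976 and 5689 in wt, so outside dF4 the 10 pDC markers together were far above the 8 early B markers. Summed neutrophil markers came to 200.1 and 760 RPKM in dF1, 29949 in dF4 and 361 and 979 in wt. In bulk RNA of this kind, fewer cells of a type and less RNA per cell cannot be told apart.

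**Figure D1:**
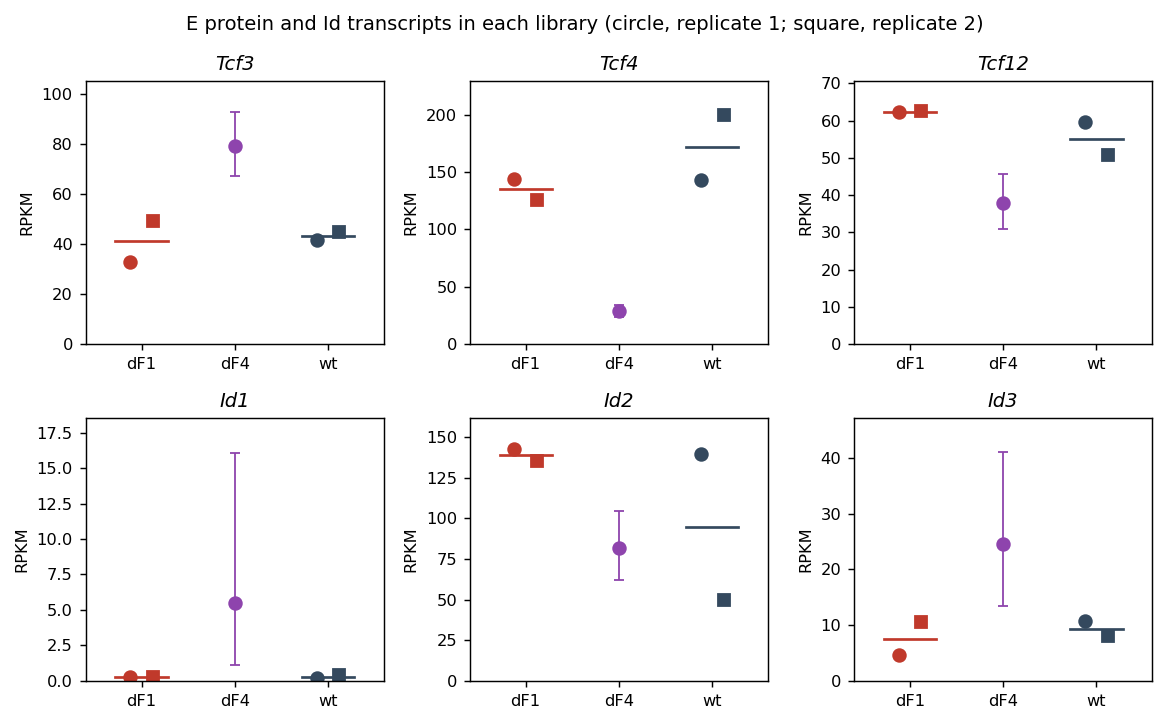
RPKM of the 6 genes in each library, by group (dF1, dF4, wt), with the transcript of highest mean for each gene. Horizontal bars are means of 2 libraries and the vertical bar on dF4 is its 95% Poisson counting interval. Tcf4 was lowest in dF4, Id2 differed between the wt libraries (139.4 and 49.5 RPKM), and Tcf12 in dF1 lay above both wt libraries.

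Tcf4 was the most abundant E protein transcript in dF1 and wt. Its main row (NM_001083967, 7155 bases) stood at 144.2 and 125.7 RPKM in dF1, 29.1 in dF4 and 143.3 and 199.6 in wt. The dF1 libraries lay near the lower wt library, and dF4 lay far below all of them. The second row, NM_013685, followed the first at a low level, with 7.7 and 6.5 RPKM in dF1, 1.1 in dF4 and 6.9 and 11.7 in wt. The main row held 94.9% and 95.1% of the summed Tcf4 rows in dF1, 96.4% in dF4 and 95.4% and 94.5% in wt.

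Tcf12 came next among the E proteins and varied least. It stood at 62.2 and 62.6 RPKM in dF1, 37.9 in dF4 and 59.5 and 50.8 in wt. Both dF1 libraries lay above both wt libraries, by a small margin, and dF4 lay below all 4.

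Tcf3 was the lowest of the 3 E proteins in dF1 and wt and the highest in dF4. Its main row (NM_001164147) stood at 33 and 49.3 RPKM in dF1, 79.2 in dF4 and 41.6 and 44.7 in wt. The wt values fell between the dF1 values, and dF4 lay above all of them. The other 4 Tcf3 rows were all at or below 7.2 RPKM in each library. These rows differ by at most 15 bases in length, and how the authors shared reads among overlapping transcripts is not given in the sources used here, so a row is not read as an isoform level. The main row held 83.8% and 81.2% of the summed Tcf3 rows in dF1, 78.7% in dF4 and 84.4% and 82.9% in wt.

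Among the inhibitors, Id2 was far above the others and was the member on which the wt libraries differed most. It stood at 142.6 and 135.2 RPKM in dF1, 81.6 in dF4 and 139.4 and 49.5 in wt. The dF1 libraries and wt replicate 1 lay together, wt replicate 2 lay 2.82-fold below wt replicate 1, and dF4 fell between the wt libraries. A gap this large between the wt libraries on the log2(RPKM + 1) scale (1.48) was reached by 0.655% of the 12215 transcripts tested.

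Id3 was at 4.6 and 10.5 RPKM in dF1, 24.6 in dF4 and 10.7 and 8.1 in wt. The dF1 libraries differed by more than the wt libraries, with 1 below both of them and 1 between them, and dF4 was above all 4. Id1 was near the lowest value the table can show, with 0.3 RPKM in both dF1 libraries, 5.5 in dF4 and 0.2 and 0.4 in wt. The dF4 value of Id1 rests on about 3 reads. Id4, the remaining Id gene and not a member, was listed at 0 in dF1 and wt and at 1 RPKM in dF4, about 1 read.

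Since RPKM is per length, the genes can be ordered within a library. In dF1 replicate 1 Tcf4 (144.2 RPKM) and Id2 (142.6) were level at the top, and in dF1 replicate 2 Id2 (135.2) stood above Tcf4 (125.7), which is within the spread of the dF1 libraries for Tcf4 (SD 13.1, n = 2). Tcf12, Tcf3, Id3 and Id1 followed in that order in both. In wt replicate 1 the order was Tcf4, Id2, Tcf12, Tcf3, Id3 and Id1, whereas in wt replicate 2 Tcf12 (50.8) and Id2 (49.5) were level. In dF4 the order was Id2, Tcf3, Tcf12, Tcf4, Id3 and Id1. There the 95% Poisson intervals of Id2 (62.4 to 104 RPKM) and Tcf3 (67.3 to 92.5) overlapped. Those of Tcf12 (31 to 45.8), Tcf4 (24.1 to 34.6) and Id3 (13.4 to 41.1) overlapped as well. Overlap of intervals is not a test, and the order within each of these sets was not tested. The interval of Id1 (1.13 to 16.1) also overlapped that of Id3. These intervals cover counting error only, and reads without molecular identifiers are not independent molecules.

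The first comparison asked what loss of finger 1 did to these genes, with dF1 set against wt by limma on log2(RPKM + 1). None of the 6 genes passed (0 of 6, and 0 of 11 rows, at adjusted p 0.05), against a background of 0% called higher and 0% called lower among 12215 transcripts. At an unadjusted p under 0.05 limma took 875 transcripts (7.16%), of which 0 were rows of these genes, and limma with robust variances called 33 transcripts over the whole table.

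Tcf4 averaged 135 ± 13.1 RPKM in dF1 and 171 ± 39.8 in wt (SD, n = 2 each), a log2 difference of -0.33 (SE 0.20, 95% interval -0.83 to 0.18, limma adjusted p = 0.796). Tcf3 averaged 41.2 ± 11.5 RPKM in dF1 and 43.2 ± 2.19 in wt, a log2 difference of -0.093 (95% interval -0.63 to 0.44, limma adjusted p = 0.945). The Tcf3 interval spans changes of either sign, so these libraries cannot show that the level was the same.

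Tcf12 averaged 62.4 ± 0.283 RPKM in dF1 and 55.2 ± 6.15 in wt, a log2 difference of 0.18 (SE 0.13, 95% interval -0.14 to 0.50, limma adjusted p = 0.822). It was the 1 member of 6 whose dF1 libraries both lay above both wt libraries, where 16.8% of all tested transcripts did so, and 0 of 6 lay below, where 17.9% did. A count of 1 of 6 is near that background.

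Id2 averaged 139 ± 5.23 RPKM in dF1 and 94.5 ± 63.6 in wt, the largest difference of the 6 on the log2 scale (0.73, SE 0.48, 95% interval -0.49 to 1.96, limma adjusted p = 0.810). That difference rests on wt replicate 2. Without that library it was -0.0057, and without wt replicate 1 it was 1.47, in fits of 2 libraries against 1. Id3 averaged 7.55 ± 4.17 RPKM in dF1 and 9.4 ± 1.84 in wt, a log2 difference of -0.36 (95% interval -1.31 to 0.59, limma adjusted p = 0.871), which turned to 0.16 without dF1 replicate 1. Id1 averaged 0.3 RPKM in both groups (limma adjusted p = 0.9996).

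**Figure D2:**
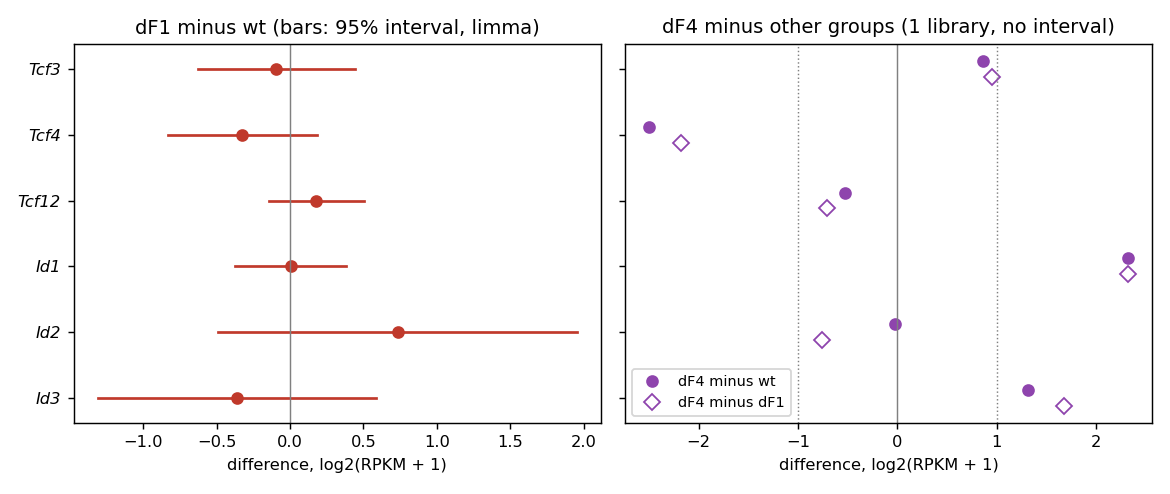
Differences on the log2(RPKM + 1) scale for the 6 genes. Left, dF1 minus wt with the 95% interval from limma, in which each interval crosses 0. Right, dF4 minus wt (filled) and dF4 minus dF1 (open), with dotted lines at the size used for counting (1), passed downward by Tcf4 and upward by Id1 and Id3.

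The second comparison set the dF4 library against wt, to describe cells without finger 4. With 1 dF4 library there is no replicate and no test. A transcript was counted when dF4 lay outside both wt libraries and at least 1 from their mean on the log2(RPKM + 1) scale, a size that 13.4% of tested transcripts passed as higher and 12.9% as lower. Of the 6 genes, 1 was lower, 2 were higher and 3 did not pass. With 26.3% of the table past the size in one direction or the other, these counts do not mark the members out.

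Tcf4 was the lower one, at 29.1 RPKM in dF4 (95% Poisson interval 24.1 to 34.6, about 124 reads) and 171 ± 39.8 in wt (SD, n = 2). That is 5.89-fold below the wt mean, with a log2 difference of -2.50, and both of its rows passed the size. Its difference from dF1 was -2.17. Tcf12 lay lower by less, at 37.9 RPKM in dF4 (31 to 45.8, about 107 reads) and 55.2 ± 6.15 in wt, a log2 difference of -0.53.

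Tcf3 lay on the other side. Its main row was at 79.2 RPKM in dF4 (95% Poisson interval 67.3 to 92.5, about 158 reads) and 43.2 ± 2.19 in wt, a ratio of 1.84 and a log2 difference of 0.86, just inside the size used for counting. Of the 5 Tcf3 rows 3 passed it, all at low levels in wt, with log2 differences of 1.06, 1.08 and 1.37. The E proteins therefore did not move one way in this library. Tcf4 made up 60.2% and 52.9% of the summed RPKM of the E proteins in dF1, 19.9% in dF4 and 58.6% and 67.6% in wt, while Tcf3 made up 13.8% and 20.7% in dF1, 54.2% in dF4 and 17% and 15.1% in wt. The share of Tcf12 was 26% and 26.3% in dF1, 25.9% in dF4 and 24.3% and 17.2% in wt.

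Id3 and Id1 were the members counted as higher. With a pseudocount of 5 the Id1 difference was 0.99, under the size, and with a pseudocount of 0.1 it was 3.85. Id3 was at 24.6 RPKM in dF4 (95% Poisson interval 13.4 to 41.1, about 14 reads) and 9.4 ± 1.84 in wt, a ratio of 2.62 and a log2 difference of 1.31. For Id1 the ratio of dF4 to the wt mean was 18.3, with a counting interval of 3.78 to 53.6 that covers only the 3 reads of dF4. Id2 was at 81.6 RPKM in dF4 (62.4 to 104, about 62 reads), between the wt libraries, and its log2 difference from wt was -0.028. Set against each wt library alone, Id2 in dF4 was -0.77 from wt replicate 1 and 0.71 from wt replicate 2. Against dF1, where its SD was 5.23 RPKM (n = 2), it was -0.76. The dF4 comparisons with wt and with dF1 share the dF4 library.

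The balance of E proteins to inhibitors was described as a ratio of RPKM, with no test. Summed over the E proteins and over the Id genes, it was 1.62 and 1.63 in dF1, 1.31 in dF4 and 1.63 and 5.09 in wt. Both dF1 libraries and wt replicate 1 shared nearly the same value, and wt replicate 2 stood apart, with the lowest Id2 and the highest Tcf4 of the 5 libraries. Tcf4 to Id2 was 1.01 and 0.93 in dF1, 0.357 in dF4 and 1.03 and 4.03 in wt. Tcf3 to Id2 was 0.231 and 0.365 in dF1, 0.971 in dF4 and 0.298 and 0.903 in wt, so dF4 resembled wt replicate 2 in this ratio and lay below all other libraries in the Tcf4 ratio.

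Cell type markers also differed between the libraries. In dF1, 9 of 10 pDC markers were lower in replicate 1 than in replicate 2, and Tcf4 was higher in replicate 1. The median log2(RPKM + 1) of all tested transcripts was 3.50 in dF1 replicate 1 and 3.55 in dF1 replicate 2. Id2 was higher in dF4 than in wt replicate 2, and the NK markers went both ways between these libraries. Nkg7 (252.1 RPKM in dF4 and 144 in wt replicate 2), Eomes (38 and 26.7) and Tbx21 (20.3 and 19.6) were higher in dF4. The other 5 were lower in dF4, among them Gzma (73.6 and 195.5), and so was the sum of all 8. All 10 pDC markers were below both wt libraries in dF4, and 9 of them passed the size downward (12.9% over all transcripts). Cox6a2 and Klk1 were listed at 0 in dF4. Siglech, a pDC surface lectin, was at 785.2 and 807.3 RPKM in dF1, 5.5 in dF4 and 936.2 and 838.4 in wt. Summed conventional dendritic cell markers came to 202 and 243 RPKM in dF1, 14.8 in dF4 and 272 and 301 in wt. Itgax and Flt3 made up most of these sums in dF1 and wt. In dF4, 4 of the 6 markers were below both wt libraries. The other 2, Batf3 (4.7 RPKM) and Zbtb46 (1.7), were above both, at low levels. The summed NK markers came to 1691 and 1490.3 RPKM in dF1, 563 in dF4 and 1446 and 658 in wt. In wt replicate 2 all 8 NK markers lay below their values in wt replicate 1, by 2.20-fold in their sum, beside 2.82-fold for Id2. All 7 T cell markers were also lower there, with sums of 153 RPKM in wt replicate 2 and 250.4 in wt replicate 1. So were 7 of 8 early B markers and 4 of 6 monocyte markers, the latter with sums of 122.8 and 233.5 RPKM. Of the pDC markers 3 of 10 were lower there, and of the neutrophil and erythroid markers 0 of 8 and 0 of 6. The shares of all transcripts that were lower in wt replicate 2, lower in dF1 replicate 1, or outside both wt libraries in dF4 were not counted. In dF4 the erythroid markers summed to 471 RPKM, the monocyte markers to 1377 and the stroma markers to 82, against at most 20.3, 272 and 6.6 in any other library. All 6 erythroid markers were above both wt libraries there, with 4 of 6 monocyte and 4 of 5 stroma markers. Lyz2 (1124.3 RPKM) gave most of the monocyte sum and Cxcl12 (62.6) most of the stroma sum. Ccr2 (63.8), Ly6c2 (39.2) and the stroma marker Col1a1 (0.7) lay between the wt libraries. The part that these cell types play in the levels of Tcf4, Id2 and the other members was not tested.

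**Figure D3:**
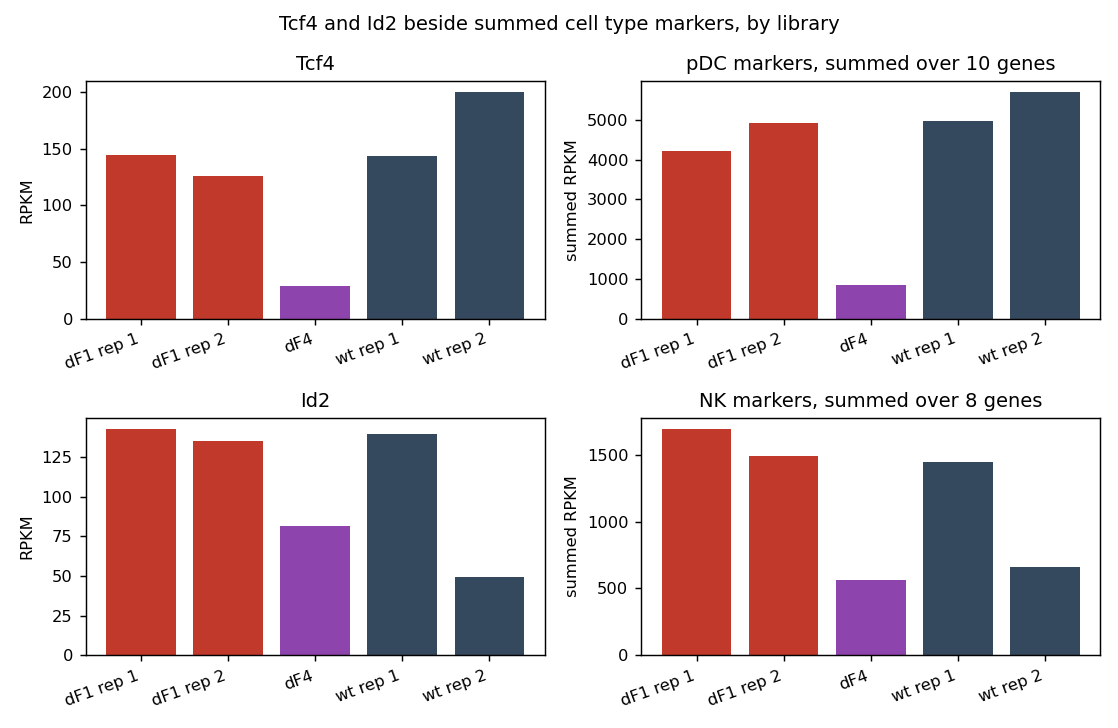
Left, RPKM of Tcf4 and Id2 in each library. Right, summed RPKM of 10 pDC markers and 8 NK markers in the same libraries. Tcf4 and the pDC markers were lowest in dF4, and Id2 and the NK markers were both lower in wt replicate 2 and dF4 than in the other libraries.

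The genes whose profiles lay nearest to each member over the 5 libraries were found among 7751 genes with a mean of at least 5 RPKM, by the root mean square (RMS) difference of log2(RPKM + 1) after centring each gene on its mean. With 5 libraries, of which dF4 differs most, many genes can look alike. The nearest to Id2 were Nkg7 (RMS difference 0.050), a granule membrane protein of cytotoxic cells, Il2rb (0.089), a receptor chain for interleukins of NK and T cells, and Arl4d (0.13). Nkg7 stood at 401.6 and 378.7 RPKM in dF1, 252.1 in dF4 and 395.2 and 144 in wt, the same order as Id2. The nearest to Tcf4 were Srgap3 (0.062), the immune adaptor Fyb (0.083) and Prrg4 (0.10). Srgap3 stood at 31.4 and 27.4 RPKM in dF1, 5.5 in dF4 and 33.3 and 40.9 in wt. The nearest to Id3 were the kinetochore genes Cenpn (0.13) and Cenpl (0.17) and the cell cycle phosphatase Cdkn3 (0.13). For Tcf3 they were Agap3 (0.021), Gtpbp3 (0.043) and Acot8 (0.046), and for Id1 they were Abcb10 (0.070), Ciita (0.081) and Folr4 (0.097). Tcf12 spanned 0.71 over the libraries, under the minimum of 1, and was given no such genes.

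The wider pathway was read from lists of partners, cofactors, targets and regulators. In dF1 against wt, 0 members of any list passed the limma test over all transcripts. Counts below are of list members tested, and a gene near 0 elsewhere could enter only by being high in dF4. The pDC genes listed here as E2-2 targets were mostly lower in dF4, with 13 of 15 past the size downward and 0 upward (background 12.9% and 13.4%), and a median log2 difference of -2.05 beside 0.022 over all transcripts. Runx2, a Runt factor of pDCs, was at 145.7 and 158.5 RPKM in dF1, 3.9 in dF4 and 166.9 and 250.2 in wt. The chemokine receptor Ccr9 was at 104.1 and 105.6 in dF1, 1.9 in dF4 and 132.5 and 128.4 in wt. Several of these genes are also pDC markers, so the list and the marker sum are not separate evidence. In dF1 the median of this list was -0.091 (0.0072 over all transcripts), and its 2 genes above and 6 below both wt libraries (16.8% and 17.9% over all transcripts) included Irf7 above (340.4 and 205.6 RPKM in dF1, 133.3 and 170.4 in wt, limma adjusted p = 0.662) and Ly6d below (488.3 and 580.7 in dF1, 913.1 and 1179 in wt, limma adjusted p = 0.451).

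Genes listed here as E2A and HEB targets in the B lineage went both ways in dF4, with 8 of 18 past the size upward and 3 downward (13.4% and 12.9% over all transcripts) and a median of 0.78. Pax5, the B lineage commitment factor, was at 6 and 9.4 RPKM in dF1, 61.5 in dF4 and 7.8 and 5.4 in wt, and Pou2af1, a B cell coactivator, was at 169 in dF4 against 19.3 and 8.9 in wt. The terminal transferase gene Dntt went the other way, at 220.9 and 187.3 in dF1, 14.8 in dF4 and 238.9 and 152.5 in wt. In dF1 the list's median was -0.096, with 2 genes above and 3 below both wt libraries, near the 16.8% and 17.9% of all transcripts. Il7r, the interleukin 7 receptor, was at 73 and 73.5 in dF1 and 99.3 and 85.9 in wt (limma adjusted p = 0.686), and the adaptor Blnk was at 110.6 and 95.7 in dF1 and 124.2 and 138.6 in wt (limma adjusted p = 0.694).

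The T lineage targets had a median of 1.13 in dF4, with 5 of 10 past the size upward and 2 downward (13.4% and 12.9% over all transcripts), and of 0.31 in dF1, with 5 above and 1 below both wt libraries (16.8% and 17.9% over all transcripts). Of those upward in dF4, Gfi1b passed the filter only through that library, at 15.6 RPKM there and at most 0.8 elsewhere. Cd4, a co-receptor of T cells that mouse pDCs also carry, was at 385.5 and 272.4 RPKM in dF1, 3.2 in dF4 and 146.3 and 154.1 in wt, and did not pass in dF1 (limma adjusted p = 0.312). Cd8a was at 131 and 94.6 in dF1, 22.6 in dF4 and 25.6 and 27.8 in wt (limma adjusted p = 0.126), and Cd3e, a T cell receptor subunit, was at 20.8 and 19.5 in dF1, 66.1 in dF4 and 13.9 and 12.6 in wt (limma adjusted p = 0.439).

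The genes of Id2-dependent lineages had a median of 0.47 in dF1, with 5 of 11 above and 1 below both wt libraries (16.8% and 17.9% over all transcripts). In dF4 their median was -0.073, with 1 of 11 past the size upward and 1 downward (13.4% and 12.9% over all transcripts). The list holds NK genes, and all 8 NK markers were low in wt replicate 2 beside wt replicate 1, whose part in the dF1 median was not tested. Clec9a, a dendritic cell receptor for dead cells, was the one below, at 11.3 and 10.5 RPKM in dF1, 2.5 in dF4 and 36.5 and 37.4 in wt (limma adjusted p = 0.126). Klrb1c, which encodes the NK receptor NK1.1, was low in wt replicate 2, as Id2 was, at 106.2 and 102.8 RPKM in dF1, 33.7 in dF4 and 104 and 34.6 in wt. Its dF4 value was level with wt replicate 2 and did not pass the size. Klrg1, an inhibitory receptor of mature NK cells, was at 9.8 and 5 in dF1, 1.2 in dF4 and 3.7 and 2.3 in wt (limma adjusted p = 0.655). The 14 genes of this list as fixed included 3 that did not pass the filter. Batf3, the only one upward in dF4, passed the filter only through dF4, at 4.7 RPKM there and at most 0.6 elsewhere.

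Among the basic helix-loop-helix partners and relatives, 7 of 11 tested were past the size upward in dF4 and 1 downward (13.4% and 12.9% over all transcripts), with a median of 1.29. Lyl1, a blood cell partner of E proteins, was at 20.1 and 31.7 RPKM in dF1, 83.1 in dF4 and 18.9 and 19.4 in wt. Tal1, a partner in erythroid and stem cells, was at 0.2 and 0.7 in dF1, 12.5 in dF4 and 0.1 and 0.7 in wt, and Bhlhe41 was at 12.2 in dF4 and at most 0.5 elsewhere. Both are among the 7 counted upward, and both passed the filter only through dF4. Bhlha15, also called Mist1 and known in secretory cells, was the one lower, at 10 and 8.1 in dF1, 2.4 in dF4 and 11.5 and 11.7 in wt. Myc was at 21.7 and 25.5 in dF1, 30.7 in dF4 and 16.6 and 8.5 in wt (limma adjusted p = 0.660 for dF1). In dF1 the list's median was 0.063, with 2 above and 2 below both wt libraries, near the 16.8% and 17.9% of all transcripts.

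The corepressors and coactivators of E proteins had 0 of 12 past the size in either direction in dF4 and a median of 0.0031. Over all transcripts 13.4% passed upward and 12.9% downward. Cbfa2t3, the corepressor Eto2 that works with E2-2 in pDCs, was at 21.2 and 26.8 RPKM in dF1, 17.2 in dF4 and 22.2 and 24.6 in wt. Its dF4 value was thus the lowest, as for Tcf4, with a log2 difference of -0.42 from wt that did not pass the size. The acetyltransferase Kat2a was at 19.1 in both dF1 libraries, 8.7 in dF4 and 17.5 and 17.4 in wt. In dF1 the median was 0.10, with 4 above and 2 below both wt libraries, where 16.8% and 17.9% of all transcripts lay.

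The inducers and repressors of Id genes had a median of -0.36 in dF4, with 1 of 18 past the size upward and 4 downward (13.4% and 12.9% over all transcripts), and of -0.054 in dF1, with 3 above and 7 below both wt libraries (16.8% and 17.9% over all transcripts). Smad1, a signal carrier of bone morphogenetic proteins, was at 10 and 9.8 RPKM in dF1, 2.3 in dF4 and 11 and 10.1 in wt. The cytokine signal carrier Stat5a was at 16.6 and 19.1 in dF1, 4.9 in dF4 and 19.4 and 20.5 in wt, and the receptor Tgfbr1 was at 35.2 and 28.1 in dF1, 11.2 in dF4 and 35.6 and 37.1 in wt. Egr2, an early response factor of lymphocytes, went the other way, at 1.7 and 2.2 in dF1, 11.9 in dF4 and 1.9 and 0.9 in wt.

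**Figure D4:**
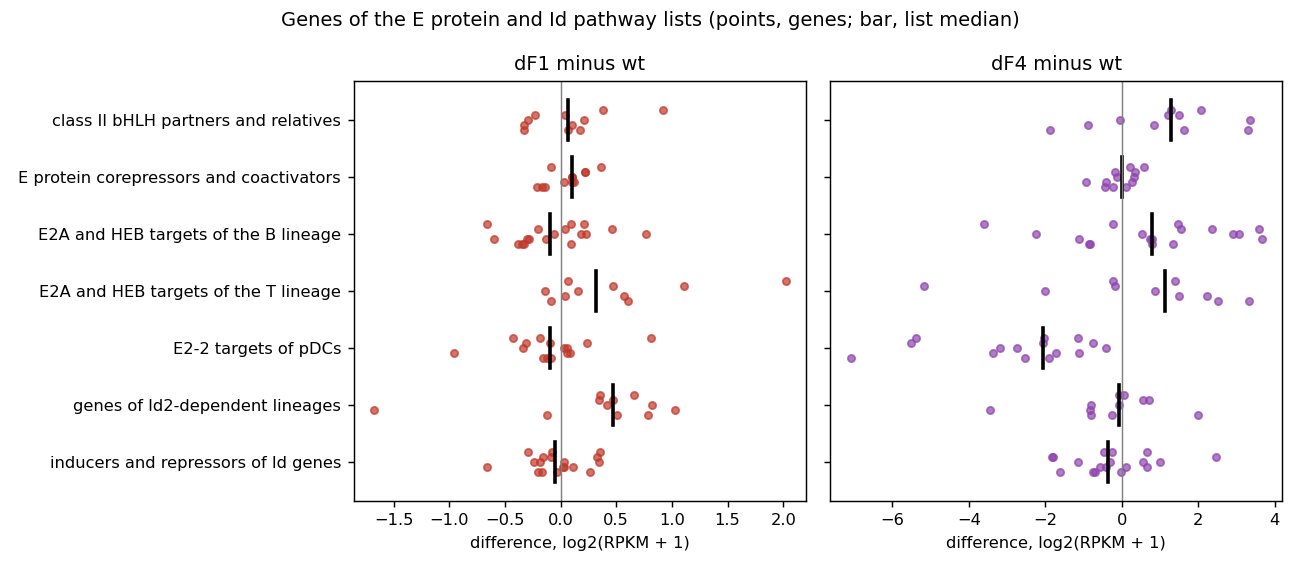
Differences on the log2(RPKM + 1) scale for the tested genes of 7 pathway lists, dF1 minus wt on the left and dF4 minus wt on the right, with 1 point per gene and a black bar at the list median. In dF4 the E2-2 targets lay lowest (median -2.05) and the cofactors lay near 0 (0.0031). The axes of the panels differ in range.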

How the data were processed

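Per the labels' protocols, library preparation used Illumina TruSeq. The deposited values are RPKM per RefSeq transcript, as named in the file header and kept to 1 decimal. TopHat, bedtools and mm9 are listed in the submitters' processing notes without versions. How strands were used, and how reads were split between overlapping transcripts or similar gene copies, is not given in the sources used here. Gapdh, which has many processed copies, was between 0.2 and 0.5 RPKM, so families with close copies are uncertain. The 1 line without a gene name was left out.

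The test of dF1 (n = 2) against wt (n = 2) was two-sided and used limma 3.58.1 (R 4.3.3, eBayes with a trend) on log2(RPKM + 1), which understates the change of low transcripts. It covered the 12215 transcripts that passed the filter (mean over all libraries of at least 1 RPKM), adjusted by Benjamini-Hochberg with a threshold of 0.05, and was tested on simulated data. A gene was represented by its transcript of highest mean. Reads behind dF4 values were estimated by dividing RPKM times length by the step that 1 read makes in its low values, with exact 95% Poisson intervals. Alternatives were pseudocounts of 0.1 and 5, filters, normalization, variance settings, a replicate block and each library left out.

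The members and lists were chosen with earlier results of these data known. Genes named from each list are among the 4 with the largest dF4 minus wt difference and the 3 with the smallest dF1 p, and the nearest 3 genes are named for each member that spans at least 1 on the log2 scale. A gene that this rule takes from a list is not reported here.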

Additional observations from a re-analysis of the deposited data

How the results depend on the processing

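The calls between dF1 and wt over all transcripts numbered 0 in the reported fit and 0 with other pseudocounts, quantile normalization, median centring, all 5 libraries in the fit or any 1 library left out. They numbered 25 with a mean of at least 5 RPKM, 33 with robust variances and 245 with no filter, and 0 of the 6 genes passed under any of these. The replicate numbers are shared by dF1 and wt, but no label says what a number stands for. The replicate 1 minus 2 differences of dF1 and wt correlated at 0.305 across transcripts, and with the replicate number as a block limma made 0 calls. Transcripts past the dF4 size numbered 3213, and 1531 with a pseudocount of 5, 1775 with a mean of at least 5 RPKM and 3246 to 3393 with either wt library left out. The signs of 4 dF1 differences depended on 1 library. Leaving out each library in turn gave -0.0057 to 1.47 for Id2, -0.88 to 0.16 for Id3, -0.38 to 0.19 for Tcf3 and -0.11 to 0.12 for Id1, and the cause was not tested. In dF4, Tcf4 stayed between -2.74 and -2.26 and Id3 between 1.05 and 1.49 under every alternative run. Id1 lay between 0.99 (pseudocount 5) and 3.85 (pseudocount 0.1) and was not tested with a mean of at least 5 RPKM. What limits these values is depth in dF4, where Id1 and Id3 rest on about 3 and 14 reads, and 2 libraries in each other group.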
